A study of Mus musculus with 9 samples.

Results

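The HoxA cluster is a row of homeobox genes on mouse chromosome 6, and 10 of its genes were followed here across fibroblasts that differ at the retinoblastoma gene Rb1. They were Hoxa2, Hoxa3, Hoxa4, Hoxa5, Hoxa6, Hoxa7, Hoxa9, Hoxa10, Hoxa11 and Hoxa13, chosen by name, and all 10 were measured among the 19938 genes of the array. Each had 1 probe set that carried its symbol alone. Affymetrix whole-transcript arrays measured total RNA of mouse embryonic fibroblasts of 3 genotypes, with 3 arrays each and 9 in all. The genotypes were Rb +/+, called WT, Rb ∆G/∆G, called ∆G, in which Rb carries a mutated common contact site for E2F transcription factors, and Rb -/-, called null. All 3 groups were serum-deprived, in medium with 0.1% serum from 24 h after plating at low density in 15 cm dishes. The series text speaks of littermates, but which arrays belong to 1 litter is not said, and no label gives the embryonic age or the part of Rb1 that the null allele lacks.

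Hox genes encode homeodomain transcription factors that give cells along the body and limb axes their positional identity. Genes at the 3′ end of a cluster are expressed early and anteriorly in the embryo, and genes at the 5′ end late, posteriorly and, in the limb, distally. Cultured fibroblasts are known to keep a Hox code of the body site they came from. Active and silent parts of a cluster are marked by Trithorax and Polycomb chromatin complexes.

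The promoters of the cluster differ widely in sequence. Of the 10 genes, 9 matched the RefSeq promoter table for GRCm38.p6, with 10 start sites, since Hoxa10 has 2. Of Hoxa4 the name alone is given. The 250 bases before the start are shown for 4 genes as examples, 3 from the 5′ side and Hoxa5 from the other side. Each CpG dinucleotide is in capitals, and each sequence is read 5′ to 3′ on the gene's strand. The windows of the other genes, Hoxa10 included, are not shown.
Hoxa13, chr6:52260881-52261130, - strand: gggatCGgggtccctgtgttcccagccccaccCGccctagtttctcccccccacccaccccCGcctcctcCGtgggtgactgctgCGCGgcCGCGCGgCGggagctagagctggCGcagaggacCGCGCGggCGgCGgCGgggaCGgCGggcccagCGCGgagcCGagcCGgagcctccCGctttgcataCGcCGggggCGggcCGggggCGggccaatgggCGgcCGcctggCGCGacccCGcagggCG
Hoxa11, chr6:52245811-52246060, - strand: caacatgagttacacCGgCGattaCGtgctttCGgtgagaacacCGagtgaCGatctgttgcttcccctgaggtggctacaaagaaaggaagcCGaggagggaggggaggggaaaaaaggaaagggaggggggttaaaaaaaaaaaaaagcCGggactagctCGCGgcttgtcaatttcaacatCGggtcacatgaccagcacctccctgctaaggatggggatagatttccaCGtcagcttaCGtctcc
Hoxa9, chr6:52227371-52227620, - strand: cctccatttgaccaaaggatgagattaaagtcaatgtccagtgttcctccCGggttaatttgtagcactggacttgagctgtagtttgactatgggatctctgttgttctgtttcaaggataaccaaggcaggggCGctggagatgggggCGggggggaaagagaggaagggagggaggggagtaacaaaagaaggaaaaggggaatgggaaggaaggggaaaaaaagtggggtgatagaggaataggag
Hoxa5, chr6:52204588-52204837, - strand: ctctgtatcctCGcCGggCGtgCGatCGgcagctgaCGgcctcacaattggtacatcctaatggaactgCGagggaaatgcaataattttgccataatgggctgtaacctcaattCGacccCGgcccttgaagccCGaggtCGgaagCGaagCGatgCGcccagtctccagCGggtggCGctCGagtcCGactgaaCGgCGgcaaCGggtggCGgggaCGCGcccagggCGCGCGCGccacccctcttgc
The Hoxa13 window held 35 CpG dinucleotides at 80.0% G and C, the Hoxa5 window 28, the Hoxa11 window 13 and the Hoxa9 window 3. The median over 32851 promoter windows of that length was 6 CpG and 52.4% G and C. The E2F site letters TTTGGCGC, TTTCCCGC, TTTGCCGC and TTTCGCGC were searched on both strands and occurred in none of the 10 HoxA windows, against 1.9% of all windows. CCAAT occurred in the windows of Hoxa2, Hoxa5, Hoxa6 and Hoxa13 and at 1 of the 2 starts of Hoxa10, against 33.8% of all windows. TTTATG, the core of sites bound by caudal-type factors, occurred 2 times in the Hoxa7 window and in no other, against 10.8% of all. TGATNNAT, a joint PBX and HOX site, occurred in the Hoxa2 window alone, against 7.7%, and TATAAA at 1 start of Hoxa10, against 12.4%. Such a match or its absence describes the window and not the binding of a factor.

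Array medians lay between 6.329 and 6.401 on the log2 scale of the RMA signal, the unit of all values below. ∆G replicate 3 differed from its group over all genes. It scored −0.30 on the leading component (51.8% of the variance), while ∆G replicates 1 and 2 lay at −13.9 and −11.5, so HoxA differences that rest on ∆G are given with and without it, and those of other genes where leaving it out changes a call. Xist, the RNA of the silenced X chromosome, was between 11.42 and 11.98 on WT replicate 3 and the 3 null arrays and between 4.24 and 4.45 on the other 5. This sex pattern coincided fully with genotype between ∆G and null, and in that comparison sex pattern and genotype cannot be told apart. Rb1 itself had a signal of 9.08 ± 0.13 in WT, 9.61 ± 0.13 in ∆G and 8.31 ± 0.23 in null (mean ± SD, n = 3 each). Fibroblast genes marked all cultures, with Col1a1, a chain of type I collagen, at 12.05 to 12.77 over the 9 arrays. The member probe sets lay between percentiles 30.8 and 74.1 of all probe sets on an array. Probe affinity differs between probe sets, so a level of one gene is not set against a level of another.

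The cluster did not behave as 1 block. Mean differences between ∆G and null were positive for its 3′ genes and negative for its 5′ genes, with the turn between Hoxa7 and Hoxa9. On the mean over the 9 arrays as zero, the 6 genes from Hoxa2 to Hoxa7 averaged 0.23 and 0.49 on ∆G replicates 1 and 2, and between −0.27 and −0.11 on the 3 null arrays. The 4 genes from Hoxa9 to Hoxa13 averaged −0.55 and −0.57 on the same ∆G arrays, and between 0.32 and 0.50 on the null arrays. WT arrays lay between these for both sets of genes, from −0.09 to 0.07 in the former and from −0.12 to 0.02 in the latter. ∆G replicate 3 did not follow its group, at −0.13 and 0.04. The division at Hoxa9, where the genes related to fly Abdominal-B begin, was drawn after the values were seen and carries no test.

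**Figure D1:**
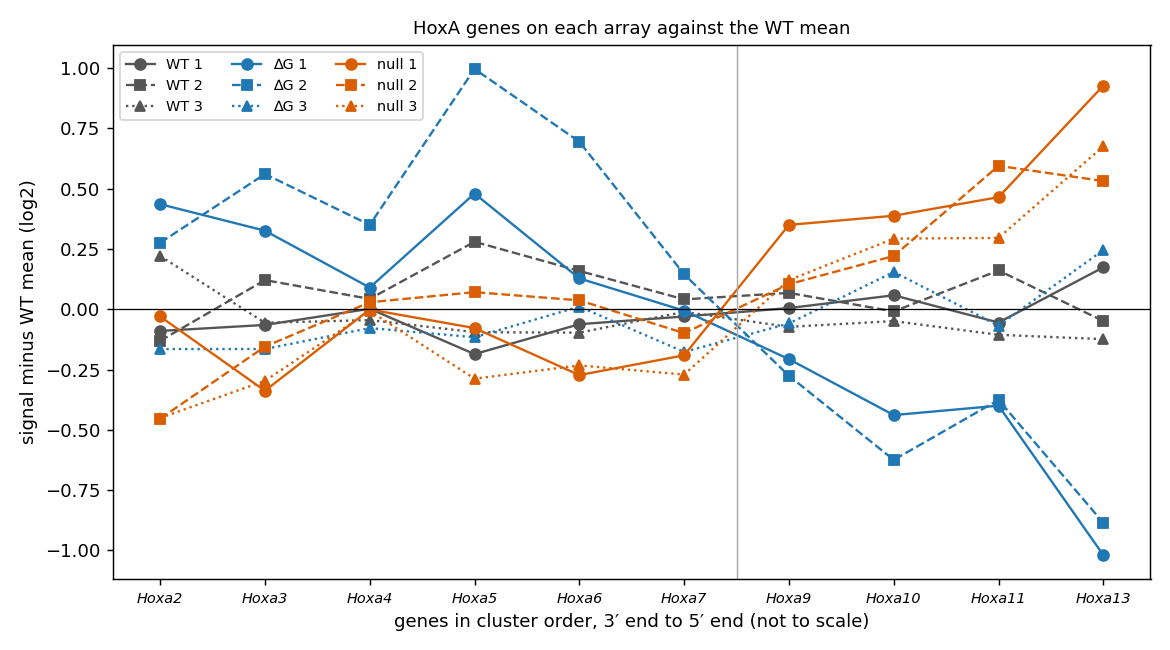
Signal of each HoxA gene on each array minus the mean of the 3 WT arrays (log2), with genes in cluster order from 3′ to 5′, colours for genotypes, symbols and line styles for replicates, and a grey line between Hoxa7 and Hoxa9. The ∆G 1 and ∆G 2 lines run from above zero on the left to below zero on the right, the 3 null lines end above every WT line from Hoxa9 onward, and ∆G 3 stays near the WT arrays.

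Counted against the range of the 3 WT arrays, all 4 genes from Hoxa9 to Hoxa13 lay above it on each null array and below it on ∆G replicates 1 and 2. On ∆G replicate 3, 2 of the 4 lay above the WT range and none below. Of the 6 genes from Hoxa2 to Hoxa7, 4 lay above the WT range on ∆G replicate 1 and 6 on ∆G replicate 2. On ∆G replicate 3, 4 lay below it, as did 3, 3 and 5 on null replicates 1, 2 and 3. Of all genes, 15.7% had every null array above the WT range and 18.9% every null array below it. The share of all genes outside the WT range on a single array was not counted, so the single-array counts have no background to be read against.

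Hoxa13, the last gene at the 5′ end, which patterns the hand and foot plate and the urogenital tract, spanned the widest range of the 10 genes. It read 7.30, 7.08 and 7.01 on WT replicates 1, 2 and 3. The ∆G arrays gave 6.11, 6.24 and 7.38, and the null arrays 8.06, 7.66 and 7.81. All null arrays thus lay above all others, while ∆G replicates 1 and 2 lay below all others and ∆G replicate 3 above the WT arrays. Hoxa13 was 2.40-fold lower in ∆G than in null (log2 −1.27, SE 0.26, limma adjusted p = 0.013). Leaving out ∆G replicate 3 made it 3.17-fold (log2 −1.67, adjusted p = 5.92e-05). Against WT, null was 0.71 higher (SE 0.26) and ∆G differed by −0.55 (SE 0.26), and neither passed (adjusted p = 0.0862 and 0.445). Both passed without ∆G replicate 3, ∆G at −0.95 (1.94-fold lower, adjusted p = 0.0048) and null at the same 0.71 with the smaller pooled spread (1.64-fold, adjusted p = 0.00119).

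Hoxa11, which patterns the forearm and lower leg and the uterus, gave the call that held longest. Its signal was 6.02, 6.24 and 5.97 on the WT arrays. It was 5.67, 5.70 and 6.01 on the ∆G arrays and 6.54, 6.67 and 6.37 on the null arrays. The null arrays did not overlap the other 6. Hoxa11 was 1.66-fold lower in ∆G than in null (log2 −0.73, SE 0.11, adjusted p = 0.00287), and this passed without any one of the 9 arrays. It rose 1.37-fold in null against WT (log2 0.45, SE 0.11, adjusted p = 0.0164), the only member called in that comparison. That call was lost without WT replicate 1 (adjusted p = 0.0549), WT replicate 3 (0.0571), null replicate 1 (0.0562) or null replicate 2 (0.0645). Against WT replicate 3 alone, the WT array with the sex pattern of the null arrays, the difference was 0.56. With 1 WT array the spread of that fit (adjusted p = 0.0597) comes from the other groups, and the lone array is assumed to vary like them. In ∆G against WT Hoxa11 differed by −0.28 (SE 0.11, adjusted p = 0.353), and by −0.39 without ∆G replicate 3 (adjusted p = 0.13).

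Hoxa10, a factor of the hindlimb, lumbar spine and uterus, followed the same order. It gave 7.18, 7.11 and 7.07 on the WT arrays. The ∆G arrays gave 6.68, 6.50 and 7.28 and the null arrays 7.51, 7.34 and 7.41. The null arrays were again the highest, with ∆G replicate 3 just under them. Hoxa10 was 1.52-fold lower in ∆G than in null (log2 −0.60, SE 0.16, adjusted p = 0.0356), and 1.78-fold lower without ∆G replicate 3 (log2 −0.83, adjusted p = 0.000312). Against WT it differed by 0.30 in null and −0.30 in ∆G, neither passing (SE 0.16, adjusted p = 0.23 and 0.496). Both passed without ∆G replicate 3, at 0.30 in null (adjusted p = 0.0211) and −0.53 in ∆G (1.45-fold lower, adjusted p = 0.0172).

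Hoxa9, a regulator of blood progenitors and of the limb, had the smallest differences of the 4. It read 6.65, 6.71 and 6.57 in WT. It read 6.44, 6.37 and 6.59 in ∆G and 6.996, 6.750 and 6.767 in null. Every null array lay above every WT array, the nearest being 6.75 and 6.71. Hoxa9 was 1.29-fold lower in ∆G than in null (log2 −0.37, SE 0.09, adjusted p = 0.025), and by −0.43 without ∆G replicate 3 (adjusted p = 0.0126). In null against WT it differed by 0.19 and in ∆G against WT by −0.18, neither passing (SE 0.09, adjusted p = 0.175 and 0.47), and without ∆G replicate 3 the latter was −0.24 (adjusted p = 0.295).

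**Figure D2:**
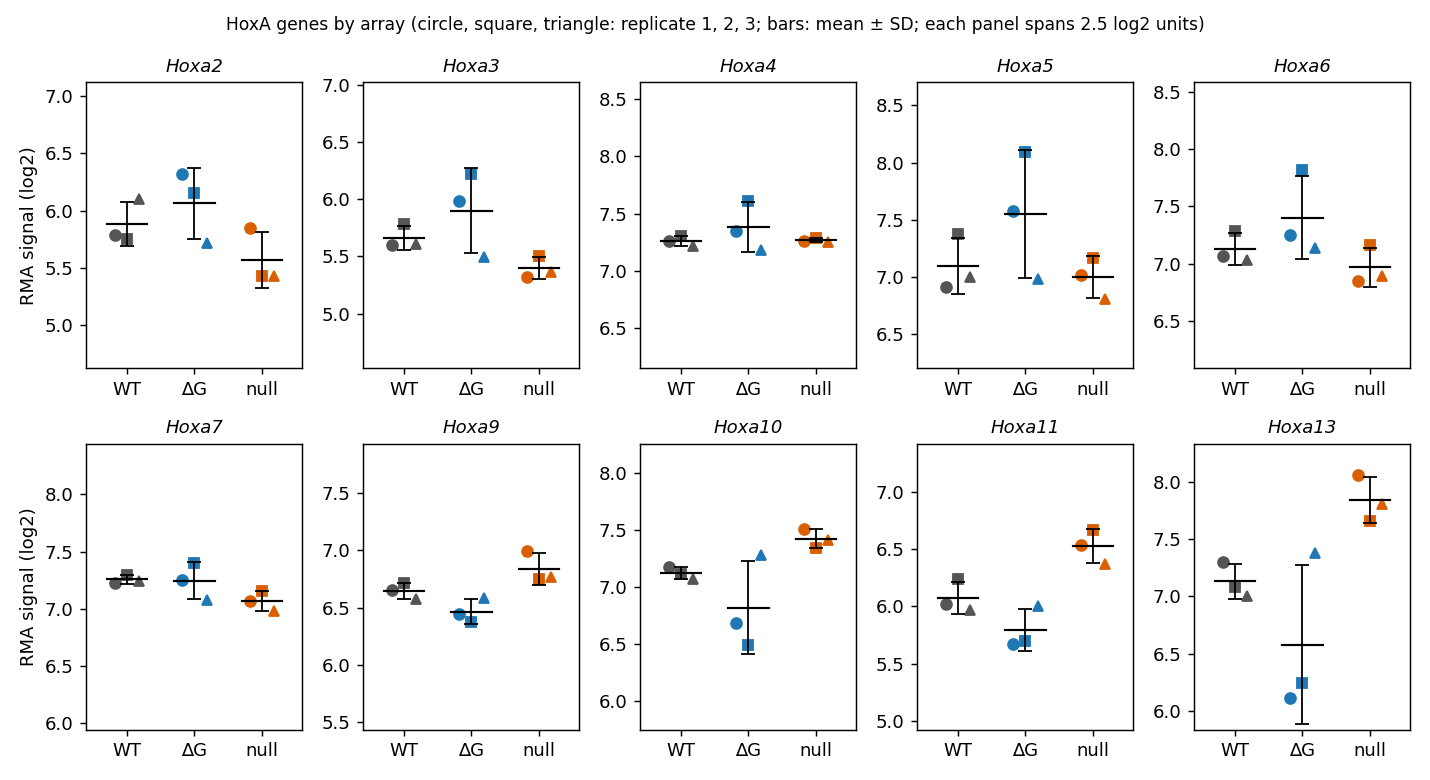
RMA signal (log2) of the 10 HoxA genes, in panels of equal span, with 1 point per array (circle, square and triangle for replicates 1, 2 and 3), the group mean as a line and the SD as error bars (n = 3). In the panels of Hoxa9, Hoxa10, Hoxa11 and Hoxa13 the null points lie above all WT points, and the ∆G triangle lies apart from the other ∆G points in most panels.

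At the other side of the cluster the values ran the opposite way. Hoxa5, which patterns the lower neck and upper thorax and the lung, had signals of 6.911, 7.377 and 7.003 on the WT arrays. It had 7.58, 8.09 and 6.98 on the ∆G arrays and 7.02, 7.17 and 6.81 on the null arrays. Its 2 highest arrays were ∆G replicates 1 and 2, while ∆G replicate 3 lay among the WT and null arrays. It differed by 0.55 between ∆G and null (SE 0.23, adjusted p = 0.168). It was 1.79-fold higher in ∆G without replicate 3 (log2 0.84, adjusted p = 0.00982). Against WT it differed by 0.45 in ∆G and −0.10 in null (SE 0.23, adjusted p = 0.476 and 0.831), and by 0.74 in ∆G without replicate 3 (adjusted p = 0.0763).

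Hoxa6, the neighbour of Hoxa5, read 7.06, 7.28 and 7.03 in WT. It read 7.25, 7.82 and 7.14 in ∆G and 6.85, 7.16 and 6.89 in null. Replicate 2 was the highest array of each genotype. The difference between ∆G and null was 0.43 (SE 0.16, adjusted p = 0.121), and Hoxa6 was 1.48-fold higher in ∆G without replicate 3 (log2 0.57, adjusted p = 0.0391). Hoxa3, a regulator of pharyngeal organs such as the thymus, gave 5.60, 5.78 and 5.60 in WT. It gave 5.99, 6.22 and 5.50 in ∆G and 5.32, 5.51 and 5.36 in null, where every array lay below every WT array. Between ∆G and null Hoxa3 differed by 0.50 (SE 0.15, adjusted p = 0.0607), and it was 1.63-fold higher in ∆G without replicate 3 (log2 0.71, adjusted p = 0.00138). The annotated span of Hoxa3 encloses Hoxa4, Hoxa5 and Hoxa6, so signals of these genes may share transcripts.

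Hoxa2, which sets the identity of the second pharyngeal arch, gave 5.79, 5.75 and 6.10 in WT. It gave 6.32, 6.16 and 5.72 in ∆G and 5.85, 5.43 and 5.43 in null, so the ∆G range covered part of both other groups. It differed by 0.49 between ∆G and null (SE 0.16, adjusted p = 0.0879), and was 1.59-fold higher in ∆G without replicate 3 (log2 0.67, adjusted p = 0.0124). Hoxa4 and Hoxa7 moved least. Hoxa4 stayed between 7.18 and 7.35 on every array except ∆G replicate 2, at 7.61, and null against WT differed by 0.01 with an interval from −0.21 to 0.22. Hoxa7 ranged from 6.98 to 7.40 over the 9 arrays, and its 3 null arrays lay below all WT arrays (difference −0.19, SE 0.09, adjusted p = 0.181). Neither gene passed in any comparison, with or without ∆G replicate 3 (adjusted p = 0.163 and 0.079 in ∆G against null without it). In ∆G against WT, Hoxa2, Hoxa3 and Hoxa6 differed by 0.18, 0.24 and 0.28 (limma adjusted p = 0.75, 0.589 and 0.546). Without ∆G replicate 3 these were 0.36, 0.44 and 0.41 (0.319, 0.069 and 0.282). Hoxa4 and Hoxa7 differed there by 0.12 and −0.01, and by 0.22 and 0.07 without that array. Between ∆G and null they differed by 0.11 and 0.17, and by 0.21 and 0.26 without it.

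In the comparison of ∆G with null, 4 of the 10 genes passed limma at an adjusted p of 0.05, all 4 lower in ∆G, against 8.71% of all genes called, 4.44% higher and 4.27% lower. A further 4 had higher signal in ∆G at an unadjusted p under 0.05, which 23.1% of all genes reached. The groups did not overlap for 4 of the 10, against 27.0% of all genes. The median log2 difference was 0.14 over the cluster and −0.01 over all genes, a median that hides the opposed signs of 6 positive and 4 negative differences. Without ∆G replicate 3, 8 of 10 passed, 4 higher and 4 lower, where 12.1% of all genes passed (5.91% higher and 6.17% lower). The count was 1, Hoxa11, without ∆G replicate 1, ∆G replicate 2 or null replicate 1. Hoxa9 then had adjusted p-values of 0.0937 to 0.107 and Hoxa13 of 0.0551 to 0.0633. Hoxa10 was also lost without null replicate 2 or 3 (adjusted p = 0.0656 and 0.089). None of the 10 passed once Y-linked expression entered the fit as a covariate, and 53 of all genes did, in a fit where sex pattern and genotype coincide. The difference of Hoxa13 was then −1.30 (adjusted p = 0.317) and that of Hoxa11 −0.88 (adjusted p = 0.113).

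Fewer members passed against WT. In null minus WT, 1 of 10 passed, against 18.4% of all genes, 8.38% higher and 10.1% lower. The groups did not overlap for 6 of the 10, 4 higher and Hoxa3 and Hoxa7 lower, against 34.7% of all genes, 15.7% higher and 18.9% lower. In ∆G minus WT none passed in limma, against 0.813% of all genes, 0.602% higher and 0.211% lower. Before adjustment Hoxa11 alone was under 0.05, as were 11.8% of all genes. None had groups without overlap, against 16.5% of all genes, 7.05% higher and 9.48% lower. Without ∆G replicate 3, 2 of 10 passed there, Hoxa10 and Hoxa13, both lower, against 1.26% of all genes, 0.717% higher and 0.547% lower. Before adjustment 9 of 10 were then under 0.05, against 12.8% of all genes. Without that array 3 of 10 passed in null minus WT, where 19.5% of all genes passed. Both comparisons share the WT arrays, so the opposed signs in them are not independent of each other.

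**Figure D3:**
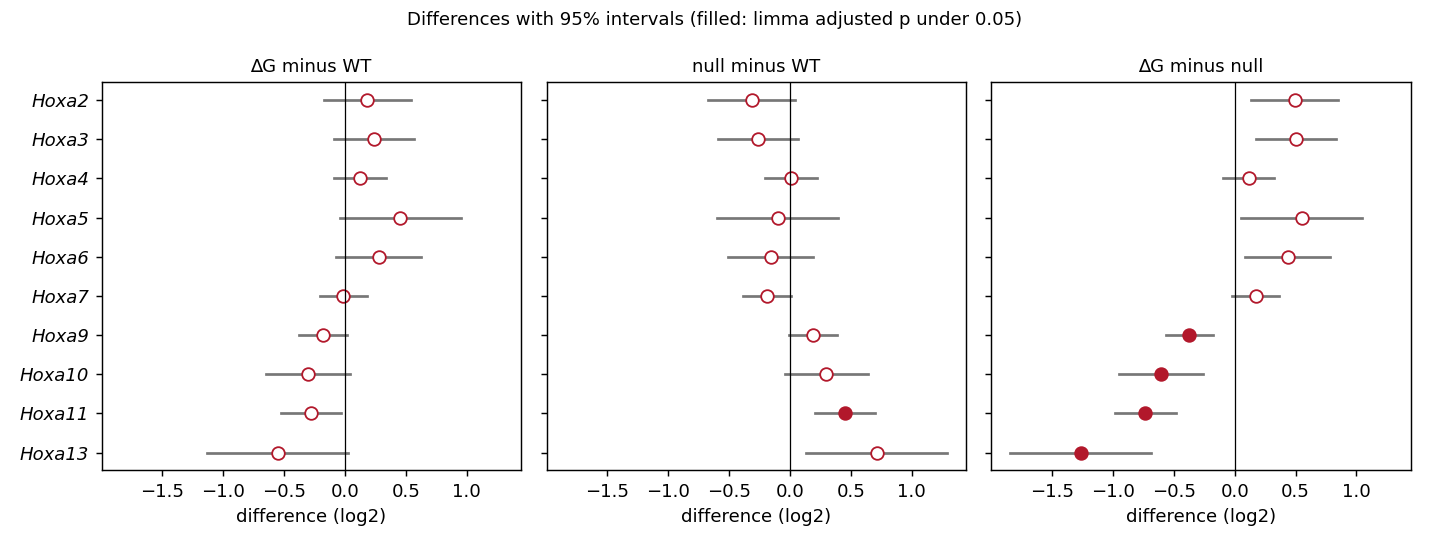
Differences between genotypes (log2) of the 10 HoxA genes with 95% intervals from the limma fit of all 9 arrays, filled where the adjusted p was under 0.05. In ∆G minus null the 4 filled points of Hoxa9, Hoxa10, Hoxa11 and Hoxa13 lie at −0.37 to −1.27, and the points of the 6 other genes at 0.11 to 0.55.

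Pairs of members were also correlated from array to array, on the same side of the Hoxa7 and Hoxa9 boundary and across it. The boundary was drawn from these same values, so the signs of the pairs do not test it. Over the 9 arrays, all 15 pairs among Hoxa2 to Hoxa7 correlated positively (Pearson r 0.45 to 0.93) and so did all 6 pairs among Hoxa9 to Hoxa13 (0.85 to 0.98). All 24 pairs across the boundary correlated negatively (−0.98 to −0.45). With the genotype means removed, the signs of all 15, 6 and 24 pairs were as before, with medians of 0.90, 0.65 and −0.56 for the 3 kinds of pair. When ∆G replicate 3 was left out as well, the division held only in part. Of the 24 pairs across, 14 were then negative and 10 positive (median −0.11), and Hoxa10 was negative with each of Hoxa3 to Hoxa7 (−0.80 to −0.61). Of the 15 pairs among Hoxa2 to Hoxa7, 10 were positive (median 0.81 over all 15), and the 5 negative ones were those of Hoxa2. Of the 6 pairs among Hoxa9 to Hoxa13, 4 were positive. These are descriptions of few arrays that share genotypes and a normalisation, with no test.

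Genes, other members of the cluster included, were ranked by their likeness to 3 members, by Pearson r over the 9 arrays among 17050 named genes. Hoxa13 was most like Hoxd13, its paralogue in the HoxD cluster (r = 0.98), then Dlg2, Hoxa10, Immp1l and Hoxd11 (0.97 to 0.98). Hoxa10 was most like Ntng1, which encodes netrin G1 (0.98), Hoxa13, Dlg2, Gpr85 and the growth factor gene Fgf7 (0.96 to 0.98). Hoxa5 was most like Phxr4, Ucma, Peak1, Cgnl1 and Wnk1 (0.95 to 0.97). The Hoxa13 list thus held 5′ genes of HoxD and HoxA, and the only Hox gene in the Hoxa10 list was Hoxa13 of its own cluster. The Hoxa5 list held no Hox gene, with Hoxa3 and Hoxa6 below its cut at r = 0.93. Genes with such r are the top of a long ranking of few arrays.

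Hottip and Hoxaas2, non-coding genes of the cluster, had differences of the same sign as the coding genes beside them. Hotairm1, Hoxa11os, Hoxaas3 and Mira, also non-coding, were not measured. Hottip, a long non-coding RNA gene just beyond Hoxa13, had 5.04, 5.16 and 4.97 in WT, 4.96, 4.81 and 5.11 in ∆G and 5.36, 5.50 and 5.27 in null. It rose 1.25-fold in null against WT (log2 0.32, SE 0.09, adjusted p = 0.0373) and was 1.34-fold lower in ∆G than in null (log2 −0.42, adjusted p = 0.0197). The former call was lost without any one of WT replicates 1 and 3, ∆G replicate 1 and null replicates 1 and 2 (adjusted p = 0.0524 to 0.128), and the latter without any one of ∆G replicates 1 and 2 and null replicates 1 and 2 (0.0673 to 0.0823). Hoxaas2, a non-coding gene between Hoxa2 and Hoxa3, had 5.97, 6.03 and 6.17 in WT, 6.27, 6.17 and 6.02 in ∆G and 5.57, 5.68 and 5.61 in null. It went the other way, 1.35-fold lower in null than in WT (log2 −0.44, SE 0.08, adjusted p = 0.00432) and 1.45-fold higher in ∆G than in null (log2 0.53, adjusted p = 0.00328), and both passed without any one of the 9 arrays. Its annotated span overlaps the end of Hoxa3. Without ∆G replicate 3 the differences between ∆G and null were −0.49 for Hottip and 0.60 for Hoxaas2 (adjusted p = 0.00749 and 0.00148). With the Y-linked covariate the adjusted p in ∆G against null was 0.232 for Hottip and 0.0975 for Hoxaas2. The Hottip call in null against WT was lost with that covariate (0.111) and with a replicate block (0.0587). Neither gene passed in ∆G against WT (adjusted p = 0.772 and 0.732).

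The microRNA gene Mir196b lies between Hoxa9 and Hoxa10 and was added after its annotation was seen. Its main mature product, read 5′ to 3′ from RefSeq with the seed of bases 2 to 8 in capitals, shows what the gene encodes.
mmu-miR-196b-5p: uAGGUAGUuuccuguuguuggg
The Mir196b probe set, which can also report the primary transcript, had 5.72, 5.66 and 5.56 in WT. It had 5.38, 5.33 and 5.47 in ∆G and 5.80, 5.90 and 5.76 in null, so the 3 genotypes did not overlap. Of all genes, 16.5% did not overlap between ∆G and WT, 34.7% between null and WT and 27.0% between ∆G and null. Mir196b was 1.35-fold lower in ∆G than in null (log2 −0.43, SE 0.08, adjusted p = 0.00576, and −0.47 without ∆G replicate 3, adjusted p = 0.00419), the direction of its neighbours. Whether this call holds without other arrays or with the Y-linked covariate was not tested. Mir196b did not pass against WT (−0.26 in ∆G, adjusted p = 0.181, and 0.17 in null, adjusted p = 0.141).

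Evx1, a homeobox gene beyond Hottip, ranged from 6.08 to 6.29 over the 9 arrays and passed in no comparison. Of 11 measured genes flanking the cluster, 2 rose and 1 fell in null against WT, against 18.4% of all genes. These were Hnrnpa2b1 and Jazf1, higher by 0.27 and 0.29, and Tax1bp1, lower by 0.25 (limma adjusted p = 0.019, 0.0302 and 0.0251). Each of these calls was lost without single arrays. Hnrnpa2b1 and Jazf1 were lost without WT replicate 1 or 2 or null replicate 1 or 2 (adjusted p = 0.0585 to 0.0758 and 0.0752 to 0.105). Tax1bp1 was lost without WT replicate 1 or 3 or any null array (0.0538 to 0.083). All 3 were lost with the Y-linked covariate (0.0807 to 0.448). None of the 11 passed between ∆G and null or between ∆G and WT in limma. Before adjustment 3 and 2 were under 0.05, against 23.1% and 11.8% of all genes. Without ∆G replicate 3, Skap2 and Jazf1 passed between ∆G and null, at 0.42 and −0.34 (adjusted p = 0.0193 and 0.026, named after their values were seen). In that fit 12.1% of all genes passed.

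Among the other Hox clusters, HoxD had called genes in both directions in null against WT, and HoxB and HoxC had only lower ones. Of 9 measured HoxD genes 4 rose and 4 fell, against 8.38% of all genes higher and 10.1% lower. The clusters were not tested against each other. Those that rose were the 5′ genes Hoxd10, Hoxd11, Hoxd12 and Hoxd13, by 0.80, 0.71, 1.08 and 1.21 (adjusted p = 0.0059 to 0.0292), named after their values were seen. Hoxd11 was lost without WT replicate 2 or 3 or any null array (adjusted p = 0.058 to 0.0872), and Hoxd13 without WT replicate 2 or 3 or null replicate 1 or 3 (0.069 to 0.0824). All 4 were lost with the Y-linked covariate (0.0651 to 0.17). Those that fell included Hoxd4, Hoxd8 and Hoxd3, by 1.64, 1.32 and 0.73 on the log2 scale (adjusted p = 0.00326 or lower). Hoxd9 was the fourth, at −0.31 (adjusted p = 0.0312, lost without WT replicate 2 or 3 or null replicate 1 or 2 at 0.0847 to 0.122), whereas Hoxa9 differed by 0.19. With the Y-linked covariate Hoxd3 and Hoxd9 were lost (limma adjusted p = 0.0507 and 0.179). In ∆G against WT the HoxD differences were negative for 8 of 9 genes, and those of HoxA for 5 of 10. Of 9 measured HoxB genes 6 fell and of 9 HoxC genes 5 fell in null against WT, and none rose in either cluster. Hoxb9 was among those that fell (log2 −0.76, limma adjusted p = 0.000298). Further toward the 5′ end, Hoxb13, Hoxc11 and Hoxc13 differed by 0.03, 0.02 and −0.05, and Hoxc10 and Hoxc12 by −0.36 and −0.31. Without ∆G replicate 3 none of these more 5′ genes passed in null against WT (limma adjusted p = 0.0919 or higher). In ∆G against WT no HoxB, HoxC or HoxD gene passed, with 1 in each cluster under 0.05 before adjustment in limma, against 11.8% of all genes. There 3 HoxD genes fell when ∆G replicate 3 was left out, against 0.547% of all genes. Opposed signs between ∆G and null were not particular to HoxA. Of 9 HoxD genes 3 passed as higher in ∆G and 4 as lower, against 4.44% and 4.27% of all genes. The lower ones, Hoxd10 to Hoxd13, were lost with the Y-linked covariate (limma adjusted p = 0.144 to 0.39). Hoxd12 was also lost without ∆G replicate 1 or 2 or null replicate 1 or 3 (0.0556 to 0.0893). Of 9 HoxB and 9 HoxC genes 6 and 5 passed as higher in ∆G and none as lower.

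**Figure D4:**
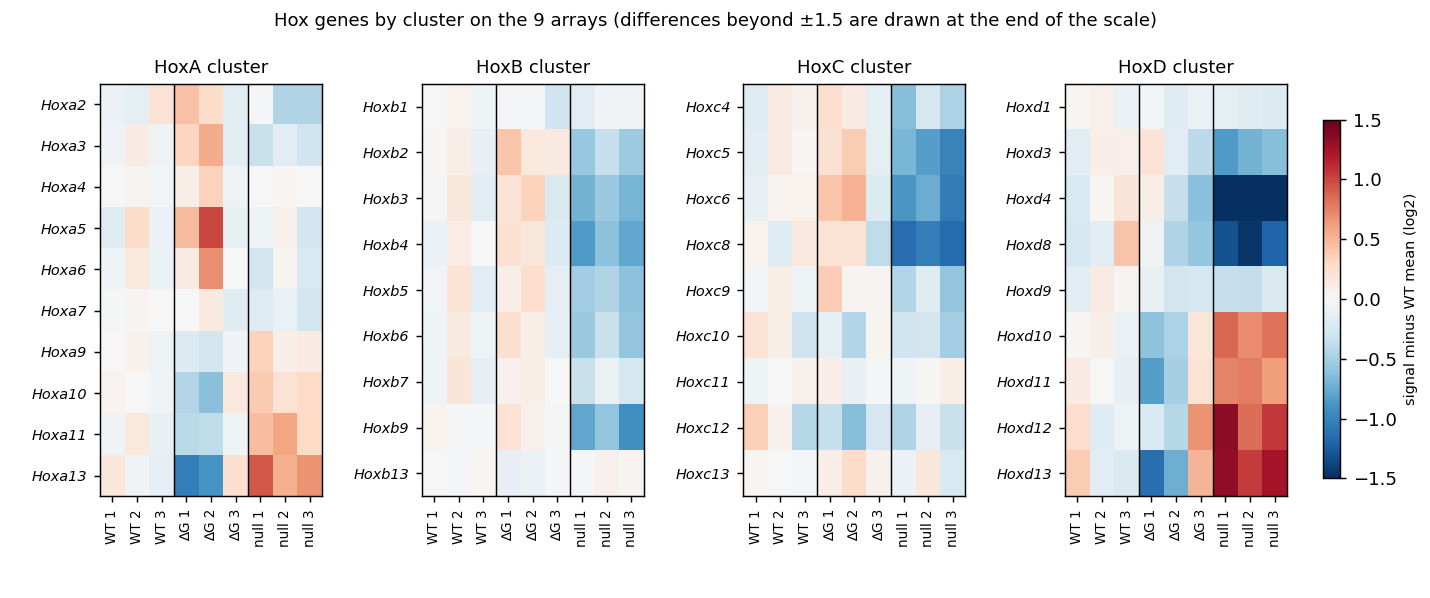
Signal minus the WT mean (log2, colour) of the measured genes of the 4 Hox clusters, in rows from 3′ to 5′, on the 9 arrays in columns, with lines between genotypes. In HoxA and HoxD the lower rows are red on the 3 null arrays and blue on ∆G 1 and ∆G 2, whereas HoxB and HoxC have blue rows on the null arrays and few red ones.

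Cofactors and chromatin regulators of Hox genes also differed in null. Of 8 measured TALE homeodomain cofactors, which bind DNA together with Hox proteins, 1 rose and 3 fell in null against WT, where 18.4% of all genes passed. Pknox2 rose by 0.63, and Meis1, Meis3 and Pbx2 fell by 0.71, 0.32 and 0.31 on the log2 scale (adjusted p = 0.00282 to 0.0159). Meis3 was lost without WT replicate 1 or 2 or null replicate 3 (adjusted p = 0.0511 to 0.0548), and Meis1 without WT replicate 3 or null replicate 2 (0.0552 and 0.0533). All 4 were lost with the Y-linked covariate (0.0839 to 0.237). Of 34 Polycomb, Trithorax and related genes, 13 rose and 3 fell in null against WT, against 8.38% of all genes higher and 10.1% lower. Among those that rose were Ezh2, the Polycomb methyltransferase, by 1.18, its partner Eed by 0.56 and the Trithorax-complex subunit Dpy30 by 0.92 (adjusted p = 0.000691 or lower). In ∆G, where 0.813% of all genes passed against WT, Psip1, which tethers Trithorax enzymes to chromatin, rose by 0.55 (adjusted p = 0.0164), the only one of the 34. That call was lost without WT replicate 2 (0.0778), ∆G replicate 1 (0.0763) or ∆G replicate 2 (0.0797). Ezh2 and Eed differed by 0.60 and 0.37 (adjusted p = 0.0568 and 0.0628).

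Hox genes act with other regulators of limb position. Of 28 limb regulators 6 rose and 4 fell in null against WT, against 8.38% of all genes higher and 10.1% lower. Among those that fell were En1, Emx2 and Shox2, by 0.78, 0.56 and 0.66 on the log2 scale (adjusted p = 0.0019 or lower). Tbx4 and Pitx1, regulators of hindlimb identity named after their values were seen, rose by 1.45 and 0.71 in null (adjusted p = 0.00998 and 0.0032). The forelimb regulator Tbx5, named likewise, rose too, by 0.42 (adjusted p = 0.0364), a call lost without WT replicate 1 or 2, ∆G replicate 1 or any null array (0.0501 to 0.109). With the Y-linked covariate Tbx5 differed by 0.20, and the Tbx5 and Shox2 calls were lost (limma adjusted p = 0.555 and 0.0761). Against WT replicate 3 alone, the WT array with the sex pattern of null, Tbx5 differed by 0.18. Msx1 and Alx4 fell in ∆G against WT without ∆G replicate 3 only, by 1.10 and 0.56 on the log2 scale (adjusted p = 0.0108 and 0.0317). In that fit 0.547% of all genes were called lower. Tbx4 gave 7.94, 7.61 and 6.77 in WT, 6.95, 7.04 and 8.21 in ∆G and 9.06, 8.80 and 8.81 in null, so ∆G replicate 3 was the ∆G array nearest to null for Tbx4, as for Hoxa13. In bulk RNA such as this, a different share of cells of a body region and a different amount of RNA per cell cannot be told apart.

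Macrophage markers (11 genes) averaged 5.63 to 6.79 over the WT arrays, 6.09 to 7.43 over ∆G and 5.84 to 6.23 over null. Their highest means were on ∆G replicate 1, at 7.43, and ∆G replicate 2, at 6.84, the arrays lowest in Hoxa13. WT replicate 1 came next at 6.79, although its Hoxa13 signal of 7.30 was the highest of the WT arrays. None of the 11 passed against WT in limma. Before adjustment 2 were under 0.05 in ∆G, against 11.8% of all genes, and none in null. Between ∆G and null none of the 11 passed and 5 were under 0.05 before adjustment, against 23.1% of all genes. Without ∆G replicate 3, 10 of 11 were under 0.05 before adjustment in ∆G against WT, with none called, where 12.8% of all genes were under 0.05. In that fit 6 of 11 passed as higher in ∆G than in null, against 5.91% of all genes. All 11 differences were positive in both comparisons, with or without ∆G replicate 3. The leukocyte marker Ptprc read 5.24 to 6.16. Fibroblast markers averaged 11.25 to 11.56 in WT, 11.26 to 11.44 in ∆G and 10.86 to 11.07 in null, where 6 of 9 fell. Of all genes 10.1% were called lower in null against WT. Cartilage markers averaged 6.39 to 6.47 in WT, 6.404 to 6.453 in ∆G and 6.58 to 6.72 in null, where 2 of 6 rose. Of all genes 8.38% were called higher there. Endothelial, epithelial, skeletal muscle and neural markers had 1, 0, 1 and 0 called members of 7, 7, 8 and 6 in null against WT and none in ∆G against WT. In these comparisons 18.4% and 0.813% of all genes were called. Proliferation markers averaged 7.99 to 8.50 in WT, 8.80 to 9.22 in ∆G and 9.47 to 9.65 in null, with 6 of 11 called higher in ∆G and all 11 in null. The shares of all genes called higher were 0.602% in ∆G and 8.38% in null. The part of these cell types, of cell cycling and of sex pattern in the HoxA differences was not tested.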

How the data were processed

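Per the series text, the authors processed the arrays to RMA values with BRB-ArrayTools, and the submitters' processing notes name RMA and affy. The deposited values are on the log2 scale, and nothing more was scaled. Tool versions and array annotation: not given in the sources used here. Of 35512 probe sets, 21789 had exactly 1 gene symbol in the platform annotation, updated by gene ID through RefSeq (GRCm38.p6). Where a gene had several, the probe set of highest mean stood for it.

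A limma model (limma 3.58.1 in R 4.3.3) estimated 1 mean per genotype from all 9 arrays, with 6 residual degrees of freedom, and p-values were adjusted by Benjamini-Hochberg over 19938 genes at 0.05. It was tested on simulated data. Separate embryos are not named for the arrays of a group, so p-values cover only the spread among these samples, possibly technical. Precision is limited by the number of arrays.

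The members and lists were chosen with earlier results of these data known. Besides the members, the rule named the 3 genes of lowest p in each list in null and in ∆G against WT (given where a result turns on them), measured non-coding genes and Evx1, and the 5 genes most like Hoxa5, Hoxa10 and Hoxa13, without predicted genes, clones, small RNAs and odour or pheromone receptors. Other names were chosen after their values were seen. Alternatives left out each array, added a replicate block or covariate, or changed scaling, filter, trend, probe set choice or the samples fitted.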

Additional observations from a re-analysis of the deposited data

How the results depend on the processing

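Leaving out 1 array at a time, the genes called ranged from 62 to 252 in ∆G minus WT (162 with all arrays), from 2546 to 3895 in null minus WT (3678) and from 762 to 2408 in ∆G minus null (1737). The HoxA genes called ranged from 0 to 2, from 0 to 3 and from 1 to 8 (0, 1 and 4 with all arrays). With the Y-linked covariate 1580 genes and 0 HoxA genes passed in null minus WT, and 53 and 0 in ∆G minus null. Against the WT array of the same Xist pattern 1782 genes and 0 HoxA genes passed in null minus WT, and no such fit could be made for ∆G minus null. With only 2 genotypes fitted 3 HoxA genes passed in null minus WT, and in ∆G minus null Hoxa10 was lost (adjusted p = 0.0605). Deviations of same-numbered samples correlated at −0.084 to 0.269, not all above 0.1, so the numbers were not taken as pairs. A replicate block gave 211, 3777 and 1977 called genes, and 7 HoxA genes in ∆G minus null, with Hoxa3, Hoxa5 and Hoxa6 added to the 4. Trend, median centring, repeated quantile normalisation, removal of the dimmest 30% and the mean of probe sets left all 4 called. Signs turned only for differences that passed no test. Without 1 array, Hoxa7 ranged from −0.0920 to 0.0695 and Evx1 from −0.0044 to 0.0996 in ∆G minus WT, Hoxa4 from −0.0158 to 0.0284 and Hoxa5 from −0.1912 to 0.0420 in null minus WT, and Hoxa4 from −0.0008 to 0.2131 and Evx1 from −0.0603 to 0.0309 in ∆G minus null. With the covariate Hoxa5 was 0.0914 in null minus WT and Evx1 −0.0022 in ∆G minus WT, and with the mean of probe sets Hibadh was 0.0325 in ∆G minus WT. The cause was not tested.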

Other observations

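Among 18 measured signals that act upstream of Hox genes in the embryo, 2 rose and 2 fell in null against WT, against 18.4% of all genes. Crabp2, which carries retinoic acid, rose 1.93-fold, and Egr2, a regulator of hindbrain Hox genes named after its values were seen, rose by 0.53 (limma adjusted p = 0.000676 and 0.0493). The Egr2 call was lost without any one WT or null array (adjusted p = 0.0554 to 0.15), with median centring (0.0565) and with the Y-linked covariate (0.497). Wnt5a and Gdf11, secreted factors of limb outgrowth and of the trunk-to-tail transition, fell by 0.88 and 0.75 on the log2 scale (adjusted p = 0.000846 and 0.00116). The Gdf11 call was lost with the Y-linked covariate (0.0608). None of the 18 passed limma in ∆G against WT, where 0.813% of all genes did. Before adjustment 4 were under 0.05, against 11.8% of all genes, and Wnt5a differed by −0.60 (adjusted p = 0.0606). Without ∆G replicate 3, 2 of the 18 passed there, against 1.26% of all genes. These were Wnt5a at −0.76 (adjusted p = 0.00408) and the limb growth factor gene Fgf10 at 0.64 (adjusted p = 0.0198, named after its values were seen). The caudal-type genes Cdx1, Cdx2 and Cdx4 passed in no comparison.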
